A study of Mus musculus with 10 samples.

Results

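Dct, the gene of dopachrome tautomerase, was described here together with 6 genes of the pigment cell lineage (Tyr, Tyrp1, Pmel, Mlana, Mitf and Sox10) in RNA-seq of the mouse dorsal telencephalon, the part of the forebrain that forms the cerebral cortex. These 7 genes were taken by symbol from the 43629 gene identifiers in the count tables. Dct was included because it was among the largest decreases between the groups, and the other 6 because of their known function in pigment cells. The study compared 5 control embryos with 5 embryos lacking the histone methyltransferase DOT1L in the forebrain, all of strain C57BL/6 and taken at E14.5 of gestation. Controls carried 1 floxed Dot1l allele (Dot1l-cKO f/+) and no Cre. Dot1l-cKO embryos carried Cre on 1 allele and were homozygous for the floxed allele (Dot1l-cKO f/f), and the study's methods name the controls as their littermates. Because the controls carry no Cre, effects of the Cre allele and of the loss of Dot1l cannot be told apart between these groups.

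Melanin is made in melanosomes, the pigment organelles of melanocytes and of the retinal pigment epithelium, by the tyrosinase family of enzymes. Tyrosinase (Tyr) oxidizes tyrosine, dopachrome tautomerase (Dct) converts dopachrome, and Tyrp1 acts further along the route to brown-black melanin, on a melanosomal scaffold of the protein Pmel. Mitf, the master transcription factor of melanocytes, drives these genes with Sox10, a factor of neural crest derivatives and of oligodendrocyte precursors. Dct is also known as a transcript of unpigmented progenitors in the ventricular zone of the embryonic telencephalon, so its RNA in this tissue need not come from pigment cells.

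The promoters of the 3 tyrosinase family genes were searched for a shared run of bases. In the RefSeq promoter table (GRCm38.p6) the 250 bases before the start of Dct (chr14:118052247-118052496, minus strand), Tyr (chr7:87493513-87493762, minus strand) and Tyrp1 (chr4:80833963-80834212, plus strand) were the 3 windows compared, and the longest run they share is in capitals.
Dct: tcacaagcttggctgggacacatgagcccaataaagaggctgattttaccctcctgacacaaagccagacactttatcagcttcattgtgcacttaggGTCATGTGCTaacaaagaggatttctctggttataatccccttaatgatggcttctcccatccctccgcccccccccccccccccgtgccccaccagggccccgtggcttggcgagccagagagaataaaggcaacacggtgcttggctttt
Tyr: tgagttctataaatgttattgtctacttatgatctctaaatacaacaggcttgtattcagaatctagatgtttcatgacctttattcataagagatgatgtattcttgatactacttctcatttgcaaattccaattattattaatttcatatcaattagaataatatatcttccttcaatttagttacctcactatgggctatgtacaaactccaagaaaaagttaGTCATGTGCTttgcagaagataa
Tyrp1: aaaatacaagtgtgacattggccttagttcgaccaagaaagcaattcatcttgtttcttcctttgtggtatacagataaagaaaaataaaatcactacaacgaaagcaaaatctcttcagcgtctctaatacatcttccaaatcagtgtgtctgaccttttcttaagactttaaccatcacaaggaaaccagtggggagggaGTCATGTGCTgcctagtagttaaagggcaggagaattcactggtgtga
The shared run of 10 bases, GTCATGTGCT, is the core of the element known as the M-box. It lay 152 to 143 bases before the start of Dct, 23 to 14 bases before that of Tyr and 48 to 39 bases before that of Tyrp1. These starts are those of RefSeq. The Tyrp1 window runs past the GENCODE start of that gene (80834123), so its run lies inside the gene as GENCODE places it. On either strand it occurred in 51 of the 32851 promoter windows of the table (0.155%). Its inner 6 bases, CATGTG, an E-box of the kind that Mitf binds, occurred in 12.3% of windows, with 2 matches for Dct and 1 each for Tyr and Tyrp1. The 3 Mitf promoters in the table had none. ACAAAG, a core that Sox factors bind, was in 16.5% of windows, with 2 matches for Dct, 1 for Tyrp1 and 0 for Tyr. A match is a description of these letters and not a bound site.

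Total counts ranged from 54202349 to 66556034 per sample. The authors' normalised tables open with a number that no source used here explains. It was 57 for replicates 2 and 3 of both groups, and mitochondrial rRNA took 0.0471% to 0.492% of the counts in those 4 samples, against 5.79% to 10.9% in the other 6. Of 17039 genes tested, 7.11% passed an adjusted p of 0.05 (edgeR's quasi-likelihood test, Benjamini-Hochberg over all genes), 966 (5.67%) higher and 246 (1.44%) lower in Dot1l-cKO. With replicate number as a block 9.41% passed, 1109 (6.51%) higher and 495 (2.91%) lower. DESeq2 called 10.4% of its 19302 genes, 6.98% higher and 3.43% lower. Dot1l itself had 1560 to 2607 counts in controls and 1158 to 3212 in Dot1l-cKO (log2 fold change 0.08, SE 0.20, adjusted p = 0.864). This count sums all exons of the gene, so it checks neither the deletion nor the labels.

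Dct was the most abundant of the 7 genes and was lower in every Dot1l-cKO sample than in every control sample. The gene lies on chromosome 14 from 118012790 to 118052244 on the minus strand (GRCm38, mm10). The 5 controls, in the order of their replicate numbers, had raw counts of 1137, 2409, 2629, 1065 and 644. The 5 Dot1l-cKO samples had 223, 420, 309, 183 and 358. The lowest control thus had more counts than the highest Dot1l-cKO sample, and control replicates 2 and 3 stood above the other controls.

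On the scale of counts per 1e+06 (CPM, on edgeR's effective library sizes), the mean of Dct was 26.3 ± 14.0 in controls and 5.09 ± 1.70 in Dot1l-cKO (n = 5 per group, SD). The ratio of these means was 5.17, and the fitted log2 fold change was -2.37 (SE 0.39). This difference chose the gene, so it is given as a description with no test. By size it ranked 5 among 175 decreases past the threshold whose groups did not overlap and whose mean log2 CPM was 1 or more. The neighbours in that order were Npy at -2.39 and Cntnap3 at -2.34. Groups that did not overlap, with Dot1l-cKO lower, were found for 2.17% of the 17039 genes tested, and with Dot1l-cKO higher for 6.17%. In these bulk samples, fewer cells that carry Dct and less Dct RNA per cell cannot be told apart.

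The mean level of Dct also differed between the 2 sets of libraries, which were split by mitochondrial rRNA share. The second set pools 3 header numbers. In the 4 samples with header number 57, the mean was 40.8 CPM in controls and 6.35 in Dot1l-cKO, and in the other 6 samples it was 16.6 and 4.24. The fitted log2 fold change was -2.66 within the first set and -1.97 within the second. Leaving out each sample in turn gave -2.57 to -2.13. Because the groups did not overlap, the same direction in each of these fits was fixed in advance and is not support.

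**Figure D1:**
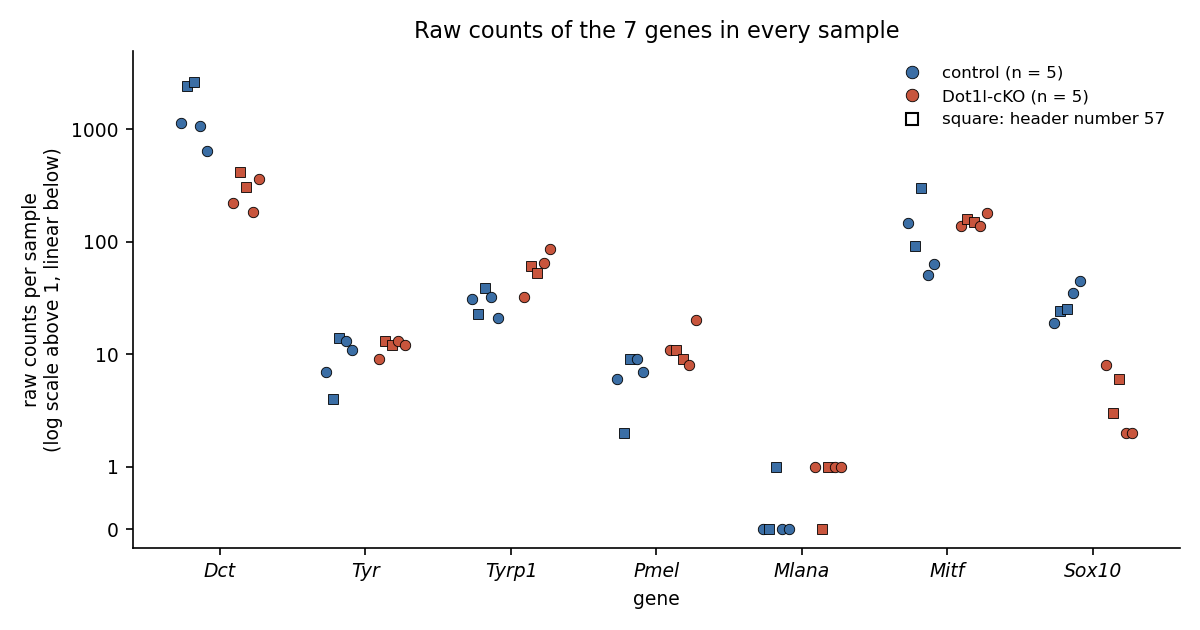
Raw counts (vertical axis, log scale above 1 and linear below) of the 7 genes in each of the 5 control and 5 Dot1l-cKO samples, 1 point per sample, with squares for the samples with header number 57. Dct spans 183 to 2629 counts with a gap between the groups, Sox10 spans 2 to 45 with a gap, and the groups overlap for Tyr, Tyrp1, Pmel, Mlana and Mitf.

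The other tyrosinase family genes were present at a small fraction of the level of Dct and were not lower in Dot1l-cKO. Tyr, on chromosome 7 from 87424771 to 87493512, had 7, 4, 14, 13 and 11 counts in controls and 9, 13, 12, 13 and 12 in Dot1l-cKO. All Dot1l-cKO counts lay inside the range of the control counts. In CPM, Dot1l-cKO replicates 2 (0.2255) and 3 (0.2101) lay above the highest control (0.2096). The log2 fold change was 0.30 (SE 0.28, adjusted p = 0.612 by edgeR). At 4 to 14 counts per library a moderate difference was not detectable for this gene.

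Tyrp1, on chromosome 4 from 80834123 to 80851719, had 31, 23, 39, 32 and 21 counts in controls. In Dot1l-cKO it had 32, 61, 53, 65 and 86. Of the Dot1l-cKO samples, 4 lay above every control and replicate 1 lay within their range, so the groups overlapped. The mean rose from 0.490 ± 0.119 to 0.991 ± 0.280 CPM (n = 5 per group, SD). Its log2 fold change was 1.02 (SE 0.25, adjusted p = 0.0307 by edgeR).

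The rise of Tyrp1 was close to the threshold. With replicate number as a block the log2 fold change was 1.00 and the adjusted p was 0.0762, and over all alternatives and samples left out the adjusted p ranged from 0.00446 to 0.288. It stayed past the threshold when control replicate 1, control replicate 3 or Dot1l-cKO replicate 1 was left out, and was lost, at adjusted p of 0.0548 to 0.0768, when any of the other 7 samples was. The direction was the same within both sets of libraries, at 1.02 for header number 57 and 1.03 for the other samples. Among the 6 genes chosen by function, Tyrp1 was called higher, where 5.67% of all genes tested were called in that direction. Tyr and Mitf were tested without a call, and Pmel and Mlana were not tested.

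Pmel, the scaffold protein of the melanosome (chromosome 10 from 128704195 to 128720238), had 6, 2, 9, 9 and 7 counts in controls and 11, 11, 9, 8 and 20 in Dot1l-cKO. The groups overlapped, and the gene did not pass the filter on low counts. In the fit without that filter its log2 fold change was 0.84 (adjusted p = 0.334 by edgeR). Mlana, a melanosomal protein restricted to pigment cells (chromosome 19 from 29697824 to 29708634), had 1 count in all controls together and 4 in all Dot1l-cKO samples together. That is at or below 1 count in every library, under the floor of 3 counts, so no fold change is given and Mlana was not detectable at this depth.

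Mitf, on chromosome 6 from 97807052 to 98021349, did not pass the test and was far more variable in controls than in Dot1l-cKO. Its counts were 148, 91, 301, 51 and 63 in controls and 139, 160, 149, 138 and 181 in Dot1l-cKO. All Dot1l-cKO samples lay inside the range of the controls, which spread from 0.794 to 4.51 CPM. The log2 fold change was 0.26 (SE 0.41, adjusted p = 0.780 by edgeR), and separate fits gave -0.16 for header number 57 and 0.69 for the rest. Control replicate 3, the highest, also had the highest summed CPM of the list of meninges and cranial mesenchyme, 871 against 33.1 to 318 in the other controls, of which replicate 5 had the 318 and 63 counts of Mitf. The list of cortical hem and choroid plexus summed to 561, 14.9, 669, 7.27 and 5.18 CPM in the controls by replicate number, and was also highest in replicate 3. The part of such tissues in the level of Mitf was not tested.

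Sox10, on chromosome 15 from 79154908 to 79165240, was low in controls and lower still in Dot1l-cKO. It had 19, 24, 25, 35 and 45 counts in controls and 8, 3, 6, 2 and 2 in Dot1l-cKO, so the groups did not overlap. The mean was 0.490 ± 0.149 CPM in controls and 0.0741 ± 0.0525 in Dot1l-cKO (n = 5 per group, SD). Sox10 passed the filter on low counts only through the controls, where it is high, so its log2 fold change of -2.73 (SE 0.41) is given as a description, with no test. With 1 sample left out it was -3.14 to -2.52, and within the 4 samples with header number 57 it was -2.29.

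Dct and Sox10 both lay lower in Dot1l-cKO, but their levels differed by a wide margin and they did not follow each other inside the groups. After subtraction of each group mean, Pearson's r of log2 CPM between Dct and Sox10 over the 10 samples was -0.32 (Spearman's rho -0.26). For Dct and Mitf r was 0.64, for Dct and Tyrp1 0.38, and for Dct and Tyr -0.32. These are descriptions over 10 samples that share the sets of libraries named above, and low counts blur those with Sox10 and Tyr.

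Per length of transcript, Dct stood above the other 6 genes in all 10 samples. With CPM divided by the kb of merged exons, Dct was at 4.46 ± 2.38 CPM per kb in controls and 0.863 ± 0.289 in Dot1l-cKO (n = 5 per group, SD). In controls it was followed by Mitf (0.351 ± 0.251), Tyrp1 (0.173 ± 0.0422), Sox10 (0.160 ± 0.0488), Pmel (0.0474 ± 0.0186), Tyr (0.0225 ± 0.00802) and Mlana (0.00283 ± 0.00633). The control ranges of Mitf, Tyrp1 and Sox10 overlapped, as did those of Pmel and Tyr, and those of Tyr and Mlana. That order is therefore firm for Dct but not between all neighbours.

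In Dot1l-cKO the order per length was Dct, Mitf (0.420 ± 0.0510), Tyrp1 (0.350 ± 0.0991), Pmel (0.0871 ± 0.0332), Tyr (0.0280 ± 0.00291), Sox10 (0.0243 ± 0.0172) and Mlana (0.0128 ± 0.00727). The lowest Dct sample, at 0.468, reached the range of Mitf, whose highest was 0.471. The ranges of Mitf and Tyrp1 overlapped in Dot1l-cKO, as did those of Tyr and Sox10, and those of Sox10 and Mlana. Within a sample, Dct was 7.41 to 27.8 times the next member in controls and 1.35 to 2.76 times in Dot1l-cKO. Against all genes tested, 52.1% had a lower mean per length than Dct in controls and 26.2% in Dot1l-cKO, while for Tyr the shares were 0.201% and 0.166%. The longest annotated Dct transcript, 3459 bases, is a single exon that retains an intron, and dividing by that length instead of the 5895 bases of merged exons gave 7.60 and 1.47 CPM per kb.

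Set against 4 genes that mark pigment cells, Dct stood closer to them in Dot1l-cKO than in controls. Tyr, Tyrp1, Pmel and Mlana together had 29 to 63 counts per sample in controls and 53 to 119 in Dot1l-cKO. Their summed level was 0.168 to 0.309 CPM per kb in controls and 0.346 to 0.673 in Dot1l-cKO. The ratio of Dct to this sum was 13.2, 42.7, 21.6, 10.6 and 9.08 in the controls by replicate number. For Dot1l-cKO it was 2.06, 2.53, 2.07, 1.06 and 1.45. The sum is led by Tyrp1, and the ratio contains Dct, so it carries the choice of that gene and is given with no test.

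**Figure D2:**
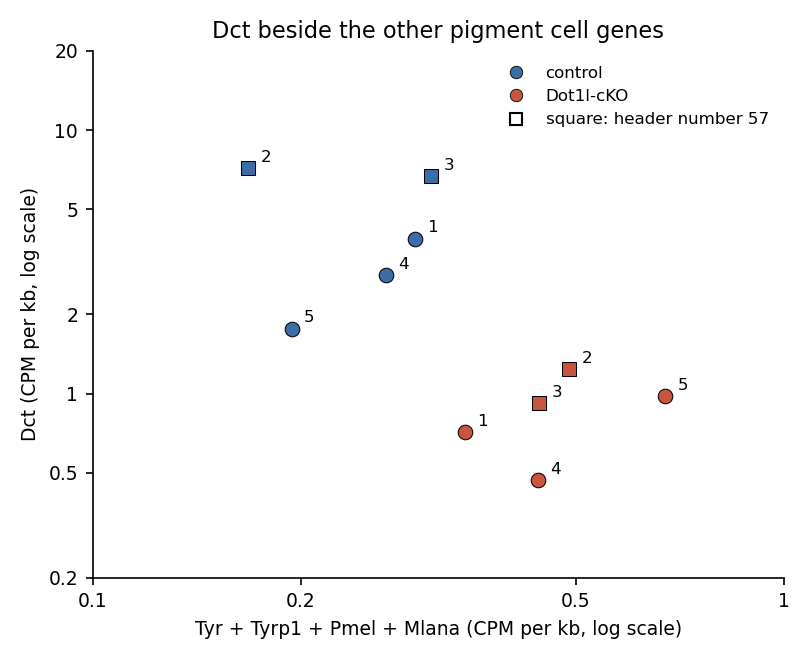
Dct (vertical axis) against the sum of Tyr, Tyrp1, Pmel and Mlana (horizontal axis), both in CPM per kb of merged exons on log scales, 1 point per sample with its replicate number and squares for header number 57. Controls sit at 1.76 to 7.17 for Dct and 0.168 to 0.309 for the sum, and Dot1l-cKO samples at 0.468 to 1.24 and 0.346 to 0.673.

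The defining markers of melanocytes were low to undetected. Of 10 such markers 4 were tested, with Tyrp1 at 21 to 86 counts per library, Oca2 at 2 to 54, Trpm1 at 8 to 25 and Tyr at 4 to 14. The 6 that did not pass the filter on low counts were Pmel, Mlana, Gpr143, Slc45a2, Slc24a5 and Mc1r. Gpr143, a receptor of the melanosome, had 0 to 7 counts per library, and Slc45a2, a melanosomal transporter, had 0 to 1. Slc24a5, another such transporter, had 1 to 18. Mc1r, the receptor for melanocyte-stimulating hormone, had 4 to 13. The summed level of the 10 was 1.19 to 2.63 CPM in controls and 1.92 to 2.92 in Dot1l-cKO.

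Genes that build and move melanosomes serve, in many cases, lysosome-related organelles in other cells too. Of the list of 26 genes, 22 were tested, 1 was higher and 0 were lower by edgeR (3 and 1 at an unadjusted p under 0.05, and 1 and 0 by DESeq2), beside 5.67% and 1.44% of all genes. Their median log2 fold change was 0.04, beside -0.0056 for all genes tested. The gene that rose was Rab27a, a small GTPase that tethers melanosomes for transport. It went from 71 to 150 counts in controls to 131 to 191 in Dot1l-cKO (log2 fold change 0.68, SE 0.18, adjusted p = 0.0406), did not overlap in CPM, and stayed past the threshold in 1 of the 10 fits with a sample left out. Oca2, a melanosomal chloride channel, had a log2 fold change of -1.27 (adjusted p = 0.342) on 2 to 54 counts, and Trpm1, a channel gene of melanocytes, had 0.80 (adjusted p = 0.144) on 8 to 25 counts.

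Signals and regulators of melanoblasts, the precursors of melanocytes, gave 1 higher and 0 lower of 10 tested from a list of 14 (1 and 0 also at an unadjusted p under 0.05 and by DESeq2), beside 5.67% and 1.44% of all genes, with a median of -0.12. Ednrb, the endothelin receptor that melanoblasts need and that radial glia also express, rose from 71.3 ± 7.02 to 97.4 ± 10.6 CPM (n = 5 per group, SD; log2 fold change 0.45, adjusted p = 0.0143). Pax3, which acts upstream of Mitf, had 1 to 10 counts per library. Kit, the receptor for stem cell factor, was at 84.1 ± 8.66 CPM in controls and 102 ± 28.0 in Dot1l-cKO (adjusted p = 0.390), and Kitl, its ligand, at 56.2 ± 11.4 and 43.1 ± 13.1 (adjusted p = 0.351). Mif and Ddt, other enzymes that act on dopachrome, had log2 fold changes of -0.03 and 0.18 (adjusted p = 0.823 and 0.567). Mif was at 227 ± 9.56 and 222 ± 9.84 CPM.

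Markers of other tissues that carry pigment cells or their precursors were sparse. For the retinal pigment epithelium, Rpe65, the isomerase of the visual cycle, had 0 to 1 counts per library and Rgr 0 to 2. Rlbp1, which radial glia also express, made up most of that list at 93.1 ± 6.28 and 91.5 ± 6.30 CPM. Of its 8 genes 4 were tested, and 0 were higher or lower by edgeR (1 higher at an unadjusted p under 0.05, and 1 higher by DESeq2). That gene was Best1, a channel of the pigment epithelium, with 11 to 31 counts in controls and 32 to 64 in Dot1l-cKO (log2 fold change 1.04, adjusted p = 0.0591, and 0.0480 with replicate number as a block). The 5 neural retina genes all stayed under the filter.

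For the neural crest, Foxd3, an early factor of that lineage, had 0 to 11 counts per library. Ngfr, a neurotrophin receptor of crest cells that other neural cells also express, was at 14.7 ± 2.06 CPM in controls and 11.6 ± 2.26 in Dot1l-cKO (n = 5 per group, SD; log2 fold change -0.34, adjusted p = 0.211). Tfap2b was at -0.16 (adjusted p = 0.938) on 3 to 96 counts. Skin genes summed to 1.20 to 9.45 CPM in controls, highest in replicate 3, and 2.85 to 3.43 in Dot1l-cKO. Of 4 tested, 1 was higher and 0 were lower by edgeR, beside 5.67% and 1.44% of all genes, with a median of -0.46. The 1 higher was Trp63 (log2 fold change 1.11, 10 to 27 against 21 to 48 counts). It passed the filter on low counts only with the Dot1l-cKO samples, so its value is a description. Trp63 stayed past the threshold in 3 of the 10 fits with a sample left out. Epcam was at 0.46, Krt5 at -1.38 and Krt8 at -1.94 (adjusted p = 0.626, 0.391 and 0.320 by edgeR).

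The meninges and cranial mesenchyme, which surround the brain and hold melanoblasts, varied between samples more than between groups. The summed level of 8 genes was 169, 225, 871, 33.1 and 318 CPM in the controls by replicate number. The Dot1l-cKO samples had 290, 43.2, 227, 37.0 and 797 CPM. None of the 8 was called by edgeR or DESeq2, and 0 had an unadjusted p under 0.05 in either. The part of attached meninges in the levels of the pigment genes was not tested.

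Sox10 is shared with oligodendrocyte precursors, which begin to appear in the forebrain near this stage, and Gpr17, a receptor of that lineage, was also lower. Like Sox10, it passed the filter on low counts only through the controls. Gpr17 had 27 to 106 counts in controls and 1 to 5 in Dot1l-cKO (log2 fold change -4.77, SE 0.58), which is likewise a description. Of 8 genes on this list, 7 were tested, 1 was lower, which was Gpr17 itself, and 1, Bcas1, was higher (1.42, adjusted p = 0.0101), beside 1.44% and 5.67% of all genes. DESeq2 called 4 lower, beside 3.43% of its genes, adding Olig1, Olig2 and Sox8. Olig1 and Olig2, which specify the lineage, were at log2 fold changes of -1.65 and -1.31 (adjusted p = 0.118 and 0.129), and Sox8 at -0.74 (adjusted p = 0.0746, and 0.0175 with replicate number as a block). The summed level of the 8 was 52.0 to 78.7 CPM in controls and 22.3 to 73.6 in Dot1l-cKO, and its part in the level of Sox10 was not tested.

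Genes of the ventral telencephalon and its interneurons were also counted. All 11 genes tested of 12 had negative log2 fold changes (median -1.77), as did 8717 of all 17039 genes tested (median -0.0056). Of these 11, 3 were called lower, beside 1.44% of all genes, namely Lhx6 (-3.00, adjusted p = 0.00187), Sst (-2.65, adjusted p = 0.0275) and Npy (-2.39). Npy had 8 counts in its lowest Dot1l-cKO sample and 106 in its lowest control. It passed the filter on low counts only with the controls, so its value is a description. Npy and Sst each stayed past the threshold in 4 of the 10 fits with a sample left out. The summed level was 82.5 to 375 CPM in controls and 24.9 to 119 in Dot1l-cKO. The part of ventral tissue in the dissections in the levels of Sox10 and Dct was not tested.

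Dct is known as a transcript of cortical progenitors, and the progenitor list moved in both directions. Of 18 radial glia genes, all tested, 5 were higher and 3 were lower, beside 5.67% and 1.44% of all genes, with a median of -0.24. Those higher were Fabp7 (0.62), Slc1a3 (0.43), Vim (0.53), Hopx (1.10) and Tnc (1.04). Vim is an intermediate filament, Slc1a3 a glutamate transporter, Tnc a matrix protein, Fabp7 a fatty acid carrier and Hopx a homeodomain cofactor. Those lower were the transcription factors Lhx2 (-1.21), Sox1 (-1.16) and Pax6 (-0.36), the last of which stayed past the threshold in 3 of the 10 fits with a sample left out. Sox2 was at -0.38 (adjusted p = 0.0639, and 0.0091 with replicate number as a block).

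The summed level of the radial glia list was 3360 to 3873 CPM in controls and 3837 to 4192 in Dot1l-cKO, and the list holds genes that rose and genes that fell. For each 1000 CPM of that list, Dct was at 6.23, 11.3, 10.2, 4.63 and 3.09 CPM in the controls by replicate number. The Dot1l-cKO samples had 1.10, 1.84, 1.34, 0.658 and 1.40 CPM. The sum is led by Vim, Nes and Fabp7, of which Vim and Fabp7 were themselves higher. The ratio contains Dct and carries the choice of that gene, so it is a description, and the part of the number of progenitors in the level of Dct was not tested. Genes of the cortical hem and choroid plexus, 7 of 7 tested, had 0 called by edgeR or DESeq2 and 0 at an unadjusted p under 0.05, with sums from 5.18 to 669 CPM in controls and 9.74 to 177 in Dot1l-cKO.

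**Figure D3:**
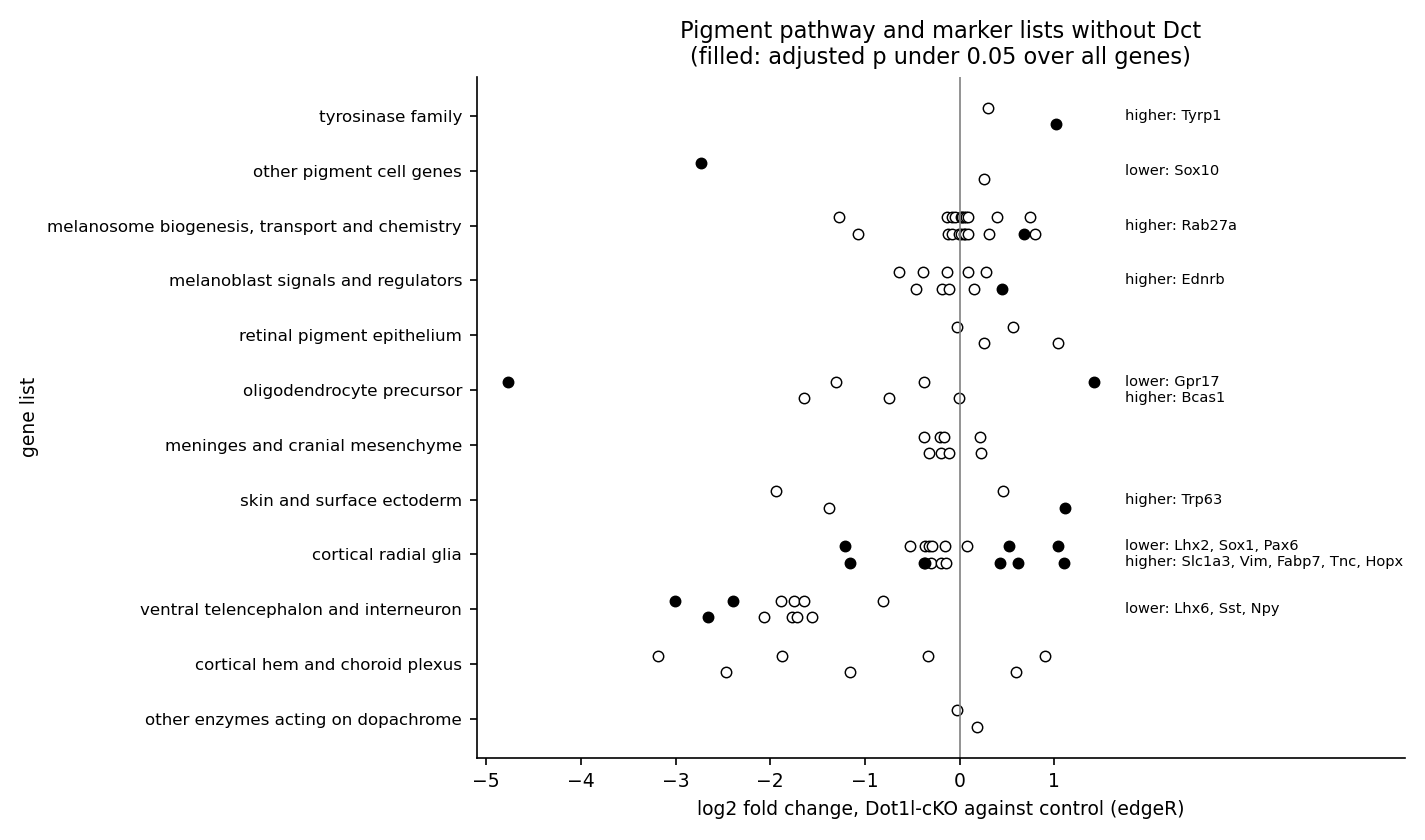
Log2 fold change, Dot1l-cKO against control (horizontal axis), of each tested gene of 12 pigment pathway and marker lists, without Dct (rows), 1 point per gene, filled where the adjusted p was under 0.05. Tyrp1 stands at 1.02, Rab27a at 0.68, Sox10 at -2.73, and all 11 ventral telencephalon genes lie below 0.

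None of the 3 nearest protein-coding genes on each side of Dct on chromosome 14 passed the test. Gpc6, a glypican gene 36.2 kb from Dct, was at 17.0 ± 2.44 CPM in controls and 14.0 ± 1.92 in Dot1l-cKO (n = 5 per group, SD; log2 fold change -0.29, SE 0.12, adjusted p = 0.214). On the other side, Tgds at 59.7 kb, Gpr180 at 84.9 kb and Sox21, a progenitor factor, at 181 kb had log2 fold changes of 0.02, 0.00244 and 0.01 (adjusted p = 0.928, 0.992 and 0.972). Gpc5 and Tpm3-rs7, farther off, were at -0.44 and -0.02 (adjusted p = 0.497 and 0.988) on low levels. None of the 6 was called by edgeR or by DESeq2, and 1, Gpc6, had an unadjusted p under 0.05 in each. An antisense gene that overlaps Dct, 4930435M08Rik, was not analysed here, and the counting used strand.

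**Figure D4:**
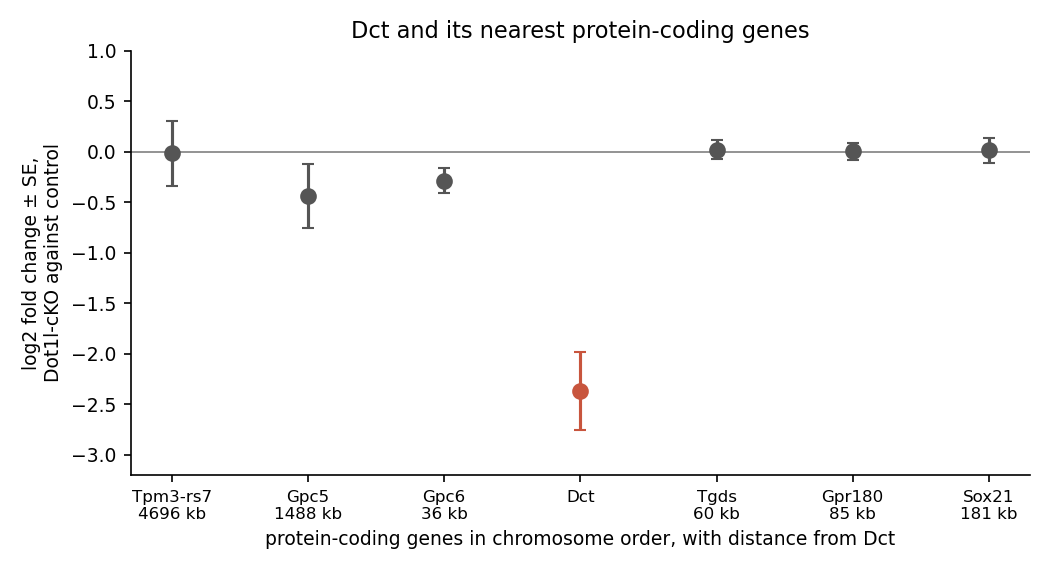
Log2 fold change with its SE (vertical axis), Dot1l-cKO against control, for Dct and the 3 nearest protein-coding genes on each side in chromosome order (horizontal axis, distance from Dct in kb). Dct stands at -2.37 while the 6 neighbours lie between -0.44 and 0.02.

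Genes most like Dct in how they varied inside the groups were sought among tested genes with a mean log2 CPM of 1 or more. Of Tyr, Tyrp1, Pmel, Mlana, Mitf and Sox10, only Mitf (1.28) reached that level, so the rest could not appear. By Pearson's r of log2 CPM with Dct after subtraction of the group means, over the 10 samples, the nearest of 12754 genes were Ankrd9 (0.976), Plscr1, Nt5dc1, Dtx3l, Msrb3, Jph1, Pnn and Snx5 (0.954), with Spearman's rho from 0.891 to 0.988. None of these 8 passed the test between groups by edgeR, their log2 fold changes spanning -0.26 to 0.32 (adjusted p = 0.311 to 0.971). An r above 0.8 was reached by 745 genes (5.84%). The samples share the 2 sets of libraries, which separate Dct inside the controls, so the likeness is a description. Without the samples with header number 57, 1 of the 8 remained among the first 8.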

How the data were processed

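RNA was sequenced from 10 samples of dorsal telencephalon, 5 control and 5 Dot1l-cKO, grouped by the labels. Libraries were stranded total RNA, paired end. The authors trimmed reads with Trim Galore 0.2.8, mapped them with TopHat2 2.0.9 to mm10, counted them per gene with HTSeq 0.6.0 on Ensembl release 79 using strand, and deposited raw counts per gene for each sample. They also deposited tables of size-factor normalised counts (unit: signal, from DESeq2 1.6.1), used here only for the number in the header and to check that each is the raw count divided by 1 factor per sample. Identifiers were matched to symbols for 42462 of 43629, and those without a symbol held 0.268% of counts.

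Raw counts were tested with edgeR 4.0.16 in R 4.3.3 (filterByExpr, TMM, quasi-likelihood test, Benjamini-Hochberg over all genes, threshold 0.05). CPM and SE come from that fit, and likeness used log2 CPM with a prior count of 2. DESeq2 1.42.0 was an alternative. Counts were also simulated with the means, library sizes and dispersions of this comparison (17039 genes, 200 changed by a log2 of 1). Of the changed genes 65.5% were recovered, and 5.76% of calls were false. The simulated samples held no sets of libraries, so these rates need not hold for the real samples. Totals of 54202349 to 66556034 leave a floor of 3 counts, or 0.0449 to 0.0603 CPM, per library, and this covers counting error only. Positions and lengths come from GENCODE mouse release 21 (GRCm38), promoters from RefSeq. Python tables used pandas and NumPy.

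Same-numbered samples had correlations of their deviations from the group means of 0.131 to 0.597 in the 5 pairs. For samples with other numbers the mean correlations were -0.137 to -0.0470. The same-numbered sample was the closest partner in both directions only for replicates 1 and 4. Replicate number was used as a block in an alternative fit, and the main fit had no block. The labels call the samples biological replicates, and the study's methods state that each n is a different animal.

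The 7 genes and all lists were chosen with earlier results of these data known, and no count over them is independent evidence. Named genes were the 7, Dot1l, list genes that passed the threshold, others of the lists where a small count needed them, the 3 nearest protein-coding genes on each side of Dct with any overlapping gene, and the 8 genes most like Dct. Cntnap3 and the other list genes with values were named after their values were seen. Some genes of the fixed lists are not reported here.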

Additional observations from a re-analysis of the deposited data

Results flagged for a closer look

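In each group of 5 samples the gap between the most distant sample and its nearest neighbour was divided by the group's whole range on the log2 CPM scale, and a value above 0.71 marked a sample as far from the rest. This was done for the 7 genes in both groups, 14 groups in all, and 3 had such a sample. Chance marks about 1 in 20 groups, and each of the 3 rests on 0 to 2 counts. For Pmel, control replicate 2 was the lowest, with a value of 0.817 and 2 counts. For Mlana, control replicate 3 was the highest, with a value of 1.0 and 1 count where the other controls had 0. For Mlana in Dot1l-cKO, replicate 2 was the lowest, with a value of 0.832 and 0 counts where the others had 1. The values for Dct and Sox10 had no such sample in either group.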

How the results depend on the processing

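With the replicate block, genes lower in Dot1l-cKO numbered 495 rather than 246, and of Tyrp1 and Sox10, the 2 genes past the threshold besides Dct, 1 remained. The block changed no call of a gene named here other than Tyrp1, Best1, Sox8 and Sox2. The header number block gave 597 lower and 1 of these genes, and DESeq2 gave 2011 genes in all, 663 of them lower, with 12 list genes lower rather than 7. At an adjusted p under 0.01 there were 495 genes, 422 higher and 73 lower, and 1 of these genes. Sox10 counts here although it passed the filter only through the controls. With at least 10 counts in every sample it was not tested, which left 1. The 6 samples without header number 57 gave 745 genes, 590 higher and 155 lower, and 1 of these genes. The 4 samples with it gave 1 gene, 1 higher and 0 lower by edgeR (1451 and 983 at an unadjusted p under 0.05). Of Tyrp1 and Sox10, 0 passed there, and both had an unadjusted p under 0.05, which for Sox10 is a description only. Fits that each left out 1 sample gave 750 to 1357 genes, 624 to 1076 higher, 126 to 343 lower, and 1 to 2 of these genes. The total moved by over 1.5 times without control replicate 1 (750) or control replicate 4 (779), and the count of lower genes without control replicate 1, 2 or 4 (126, 134 and 136) or Dot1l-cKO replicate 1, 3 or 4 (149, 157 and 144).

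The cause of these changes was not tested. Per length, the longest transcript gave Dct 7.60 and 1.47 CPM per kb, Tyr 0.0329 and Mitf 0.533 in Dot1l-cKO. Directions turned only for genes far from the threshold. Mitf was at -0.16 within header number 57. Tpm3-rs7 was at 0.34 there and at -0.28 to 0.16 with a sample left out. Tgds was at -0.00528 with DESeq2, -0.00160 with DESeq2 size factors, -0.0496 without header number 57 and -0.0253 to 0.0590 with a sample left out. Gpr180 was at -0.0230, -0.0202, -0.00965 without the filter, -0.00955 without mitochondrial genes, -0.11 within header number 57 and -0.0453 to 0.0314 with a sample left out. Sox21 was at -0.0122, -0.00878, -0.20 within header number 57 and -0.0608 to 0.13 with a sample left out. Counts under about 20 per library limit Tyr, Pmel, Mlana and, in Dot1l-cKO, Sox10.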
